A study of Mus musculus with 8 samples.

Results

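The genes described here are 36 mouse genes of homologous recombination, the Fanconi anaemia pathway and the DNA damage checkpoint, chosen by name from the 49315 Ensembl genes of the deposited count tables. They were followed in cultured heart muscle cells, isolated from C57/Bl6 embryos at embryonic day 12.5 and grown either with 10 µM simvastatin (4 libraries) or in control medium (4 libraries). Simvastatin inhibits HMG-CoA reductase, the enzyme that makes mevalonate. RNA came from male and female embryos pooled, and the labels give neither the time in simvastatin nor whether replicates were separate cultures. The file headers place replicates 1 and 3 of each group in set 1 and replicates 2 and 4 in set 2, without saying what a set was. P-values cover the spread among these libraries, and that spread may be technical. Library totals ran from 30474586 to 34993255 counts with simvastatin and from 31457872 to 35215640 counts in controls, and the 36 genes had between 18 and 2218 counts in a library. Levels are given as CPM, counts scaled to the normalised library total, and coordinates are those of GRCm38.

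Homologous recombination repairs a broken chromosome, or restarts a broken replication fork, by copying the sister chromatid. Break ends are trimmed to single strands, BRCA1, PALB2 and BRCA2 prepare them for strand exchange, and helicases and nucleases resolve the joined molecules. The Fanconi core complex attaches ubiquitin to FANCD2 and FANCI where strands are crosslinked, and the kinases ATM and ATR, through CHEK2 and CHEK1, hold the cell cycle while repair proceeds. Many of these proteins work in S and G2 phase, when a sister chromatid is present, and their transcripts are known to be more abundant in dividing cells.

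With simvastatin, transcripts of 24 of the 36 genes fell and those of 0 rose, and the 24 stood at between 20.9% and 61.5% of the control level. The background over all 16126 genes tested was 9.61% that fell and 7.79% that rose (adjusted p under 0.05, quasi-likelihood test of edgeR with Benjamini-Hochberg adjustment). The median log2 fold change, simvastatin over control, was -1.26 over the 36 genes and 0.01 over all genes tested. The largest fall was that of Exo1 (-2.26) and the smallest fall past the test was that of Rad51c (-0.70). In 20 genes the log2 fold change was -1 or below, a loss of at least 2-fold, and in 5 it was -2 or below. The 12 genes that did not pass lay between -0.46 (Fancm) and 0.24 (Fance), and 2 of them, Rbbp8 and Fancg, were under 0.05 before adjustment in edgeR. In 25 genes, the 24 that fell and Fancg, every simvastatin library was below every control library, against 12.1% of all genes tested. All 36 passed the filter on low counts.

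**Figure D1:**
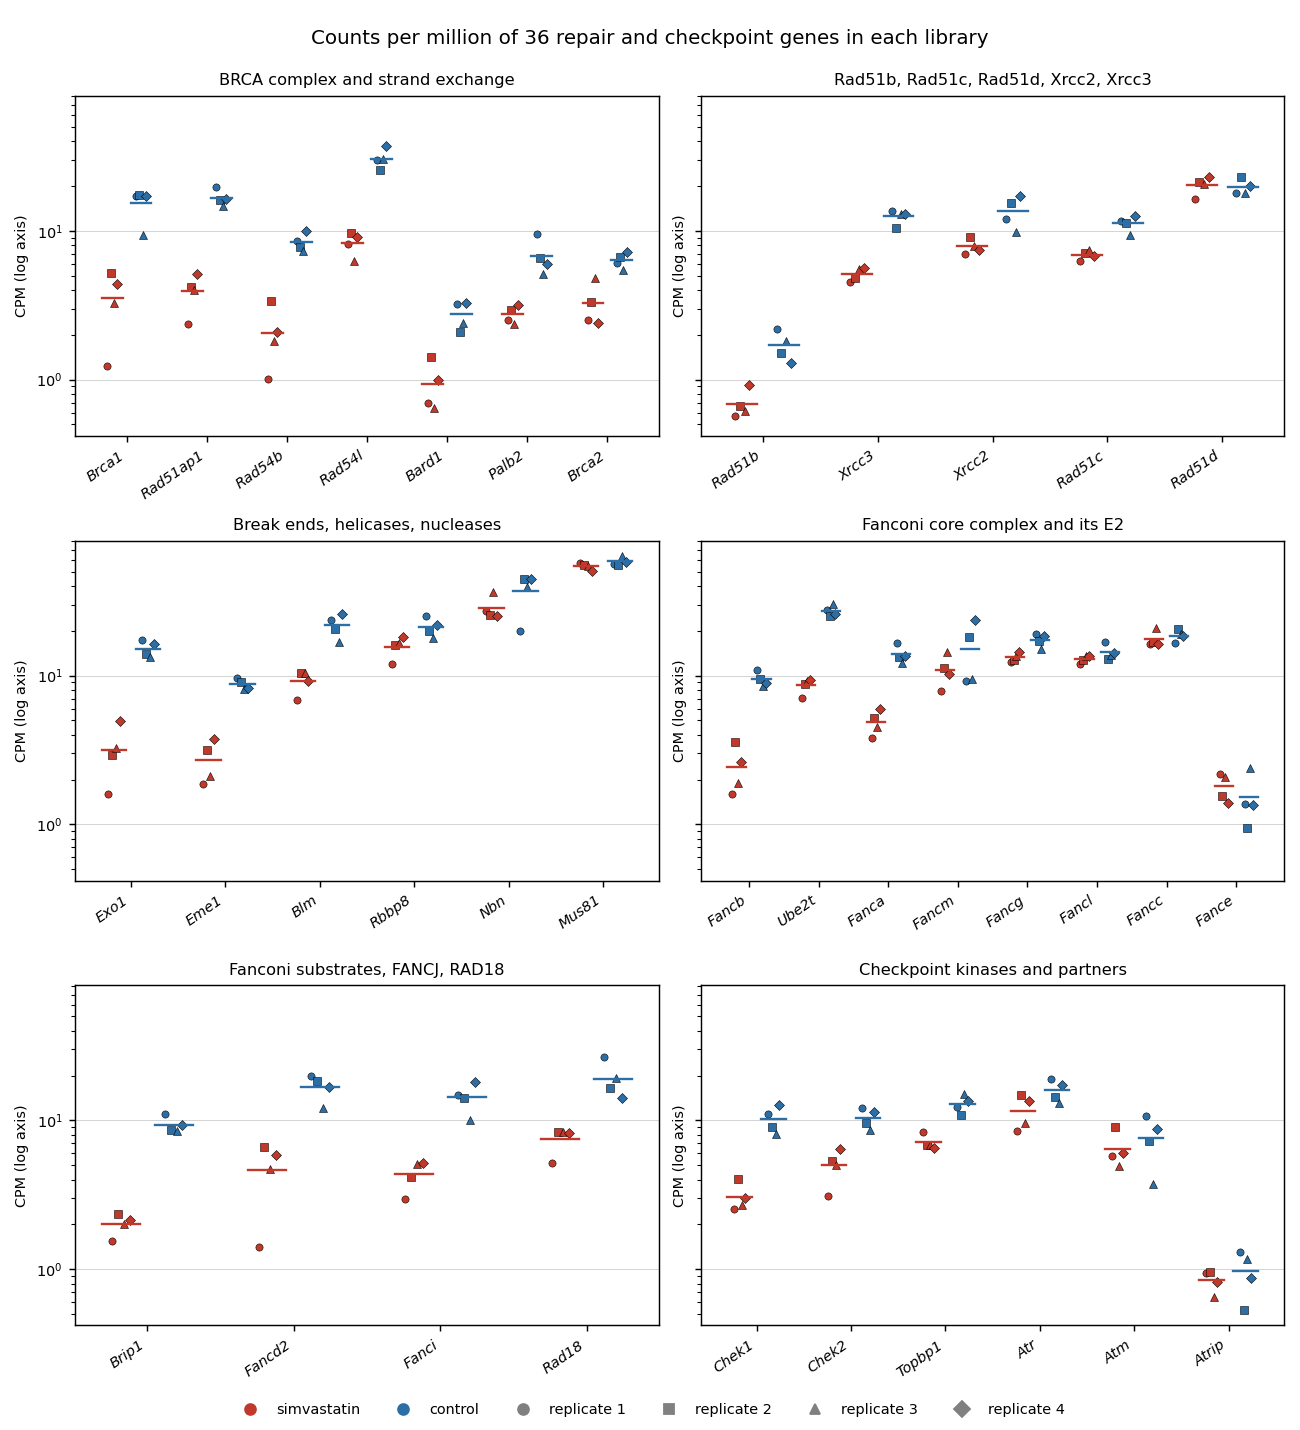
CPM (log axis) of each of the 36 genes, simvastatin libraries left of control libraries, with 1 symbol per replicate and a bar at the mean of 4. In 25 genes the simvastatin libraries all lie below the control libraries, while genes such as Mus81, Rad51d and Fancc have overlapping groups.

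Of 6 functional groups, 2 fell whole and 4 in part, beside 9.61% of all genes tested that fell. All 7 genes of the BRCA complex and strand exchange and all 4 of the group of FANCD2, FANCI, BRIP1 and RAD18 fell. Among Rad51b, Rad51c, Rad51d, Xrcc2 and Xrcc3 4 of 5 fell, among the genes of break ends, helicases and nucleases 3 of 6, among the Fanconi core complex with its conjugating enzyme 3 of 8, and among the checkpoint kinases and their partners 3 of 6. The group medians were -1.89, -1.78, -0.79, -0.84, -0.43 and -0.65 in that order, as log2 fold changes. In bulk RNA, fewer cells that express a gene and less RNA of it per cell cannot be told apart.

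**Figure D2:**
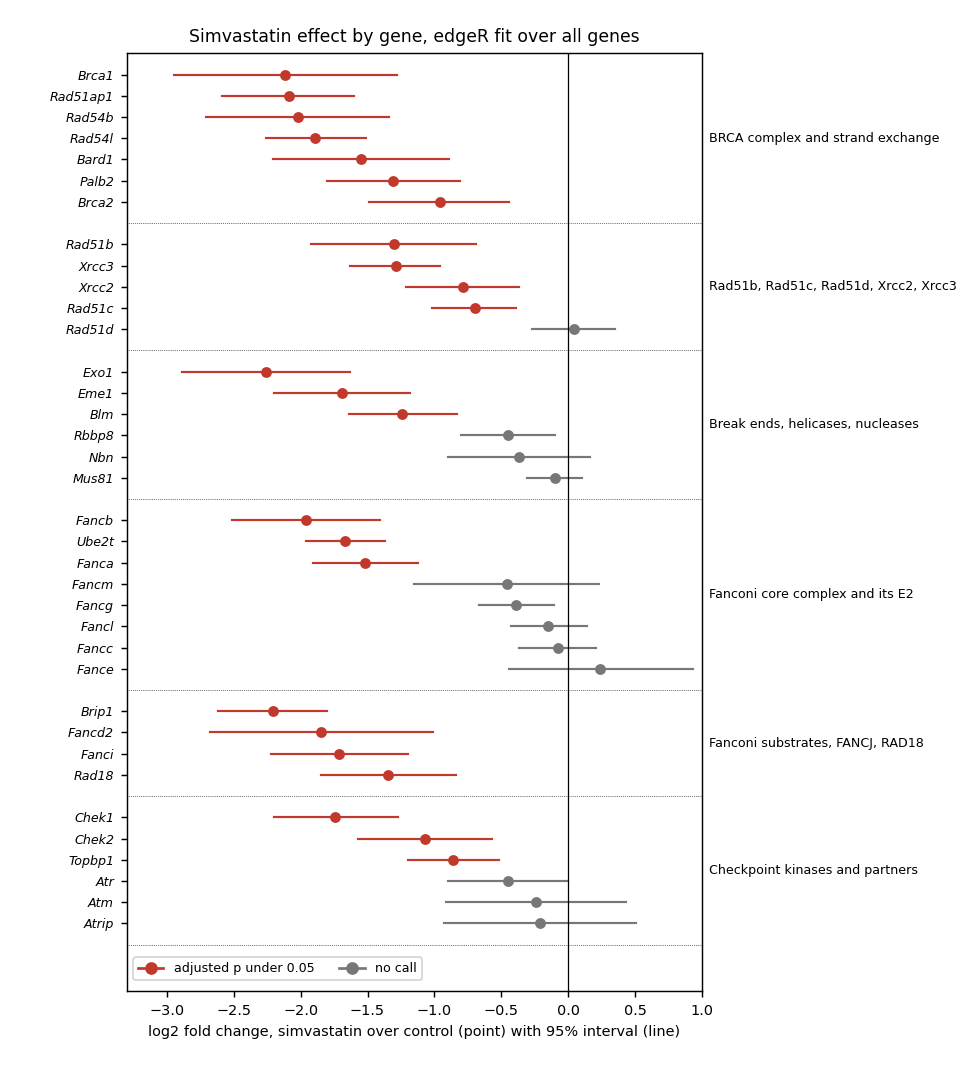
Log2 fold change, simvastatin over control, of each gene (point) with its 95% interval from the edgeR fit (line), by functional group. The 24 genes that fell lie between -2.26 and -0.70, and the 12 without a call between -0.46 and 0.24.

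Markers of dividing cells moved in the same direction. All 20 proliferation markers fell (median log2 fold change -2.0), and their summed level was 471 to 646 CPM with simvastatin, against 1955 to 2260 CPM in controls. Among them Mcm5, a subunit of the replicative helicase, had -2.19, Mcm3, another subunit, -2.12, and Cdk1, the mitotic kinase, -1.99. The summed level of the 36 repair genes was 264 to 321 CPM with simvastatin, against 496 to 583 CPM in controls. How far the lower level of proliferation markers accounts for that of the repair genes was not tested.

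Cardiomyocyte markers were the most abundant of the cell type lists, with a summed level of 50371 to 55701 CPM with simvastatin, against 44103 to 54746 CPM in controls, and 1 of 10 rose and 0 fell. Smooth muscle markers summed to 442 to 659 CPM with simvastatin, against 2522 to 3643 CPM in controls, and 5 of 6 fell. Fibroblast and mesenchyme markers summed to 1236 to 1440 CPM with simvastatin, against 1145 to 2541 CPM in controls, and 3 of 8 fell. The sets went opposite ways for this list: in set 1 alone 6 of the 8 fell and 0 rose, in set 2 alone 0 fell and 3 rose, and the difference between sets passed for 3 (edgeR interaction term). Among all genes tested 5.91% fell in set 1 alone and 11.5% in set 2 alone, and the difference passed for 0.0558%. Macrophage markers summed to 296 to 389.9 CPM with simvastatin, against 341 to 433 CPM in controls with 2 of 5 falling. Epicardial markers summed to 205 to 280.4 CPM with simvastatin, against 166 to 268 CPM in controls, where 2 of 6 fell and 1 rose. Endothelial markers summed to 226 to 283 CPM with simvastatin, against 220.4 to 305 CPM in controls, where 2 of 8 fell and 2 rose. A sum follows the most abundant genes of its list, so these overlapping sums hide opposite moves of single genes. Blood markers summed to 15.1 to 31.2 CPM with simvastatin, against 7.31 to 12.3 CPM in controls, and 2 of the 4 tested of 7 rose. Beside these counts, 9.61% of all genes tested fell and 7.79% rose, so the 1 of 10 cardiomyocyte markers that rose is near the background. No marker of these lists was at 0 in every library, and their part in the results was not tested.

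Promoters of the genes, with and without a call, were searched for short words on both strands. The window was the 300 bases from 250 before to 50 after each RefSeq gene start (GRCm38.p6). Of the 36 genes 29 have an entry in that table. The E2F words TTTCCCGC, TTTCGCGC, TTTGCCGC and TTTGGCGC stood in 6 of the 29 (20.7%), in 5 of 20 genes that fell (25%) and in 1 of 9 without a call (11.1%), against 3.3% of 17492 protein-coding genes and 2.6% of all 27025 genes in the table. The words of the cell cycle homology region, TTTGAA and TTCGAA, stood in 4 of the 29 (13.8%), against 20.2% of protein-coding genes, and CCAAT stood in 17 of the 29 (58.6%), against 42.3% of protein-coding genes. The 5 genes that fell and had an E2F word were Bard1 (log2 fold change -1.55), Chek2 (-1.07), Brca2 (-0.96), Topbp1 (-0.86) and Rad51c (-0.70). Apart from Bard1, these had the smallest falls among the 20. None of the E2F words overlapped the other words in these 29 genes. These counts describe letters in a window, without a test, and show neither binding nor its absence. The sequences below are 3 promoters with an E2F word of genes that fell, 1 with such a word of a gene without a call (Fancg), and that of Brip1, which had one of the largest falls and no E2F word, 5′ to 3′ on the gene's strand, from RefSeq, with the E2F words, or their reverse complements, in capitals.
Bard1 (chr1:71102923-71103222, minus strand): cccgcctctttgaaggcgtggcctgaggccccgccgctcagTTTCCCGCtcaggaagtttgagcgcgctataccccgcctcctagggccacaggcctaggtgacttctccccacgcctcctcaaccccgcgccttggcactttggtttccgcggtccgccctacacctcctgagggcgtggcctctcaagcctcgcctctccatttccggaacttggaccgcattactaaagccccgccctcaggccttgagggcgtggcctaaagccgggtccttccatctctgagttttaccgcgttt
Chek2 (chr5:110839733-110840032, plus strand): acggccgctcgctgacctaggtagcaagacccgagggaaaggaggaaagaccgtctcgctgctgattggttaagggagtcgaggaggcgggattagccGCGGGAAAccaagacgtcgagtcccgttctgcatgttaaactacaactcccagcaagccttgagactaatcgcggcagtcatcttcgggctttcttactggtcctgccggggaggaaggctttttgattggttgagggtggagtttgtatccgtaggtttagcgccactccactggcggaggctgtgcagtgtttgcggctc
Topbp1 (chr9:103305077-103305376, plus strand): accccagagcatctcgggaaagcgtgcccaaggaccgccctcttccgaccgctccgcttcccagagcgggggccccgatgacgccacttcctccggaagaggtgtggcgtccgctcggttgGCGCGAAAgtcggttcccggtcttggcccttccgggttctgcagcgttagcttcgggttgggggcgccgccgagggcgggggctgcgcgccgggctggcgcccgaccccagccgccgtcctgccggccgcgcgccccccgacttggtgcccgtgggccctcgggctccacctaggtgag
Fancg (chr4:43010252-43010551, minus strand): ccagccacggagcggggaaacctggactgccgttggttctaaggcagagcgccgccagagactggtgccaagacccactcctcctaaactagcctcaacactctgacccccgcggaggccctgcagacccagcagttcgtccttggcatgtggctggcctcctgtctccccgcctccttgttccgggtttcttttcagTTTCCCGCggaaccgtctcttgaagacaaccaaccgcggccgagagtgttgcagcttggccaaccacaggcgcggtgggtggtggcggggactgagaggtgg
Brip1 (chr11:86201144-86201443, minus strand): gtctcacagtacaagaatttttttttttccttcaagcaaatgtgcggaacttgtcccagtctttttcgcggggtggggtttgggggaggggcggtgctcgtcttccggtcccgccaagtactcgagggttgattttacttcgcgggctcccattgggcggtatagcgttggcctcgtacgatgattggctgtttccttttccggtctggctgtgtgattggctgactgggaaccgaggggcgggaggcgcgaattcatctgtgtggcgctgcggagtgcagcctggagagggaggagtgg
The E2F word began 209 bases before the gene start in Bard1, 152 in Chek2, 129 in Topbp1 and 52 in Fancg. Brip1 had 3 CCAAT words on the opposite strand, beginning 99, 67 and 34 bases before its start.

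Genes of the BRCA complex and of strand exchange all fell. Rad54l (ENSMUSG00000028702, chromosome 4, 116094264 to 116123690), which encodes the RAD54 translocase that promotes strand exchange, had 8.1, 9.62, 6.29 and 9.09 CPM in simvastatin replicates 1 to 4, against 29.8, 25.4, 30.2 and 37 CPM in control replicates 1 to 4. Every simvastatin library was far below every control, with a log2 fold change of -1.89 ± 0.17 (SE, adjusted p = 6.22e-05 in edgeR). Rad51ap1 (ENSMUSG00000030346, chromosome 6, 126923050 to 126939587), whose product stimulates strand invasion, had 2.36, 4.18, 4.0 and 5.14 CPM in simvastatin replicates 1 to 4, against 19.8, 16.1, 14.7 and 16.5 CPM in control replicates 1 to 4. The groups did not overlap, and the log2 fold change was -2.09 ± 0.22 (SE, adjusted p = 0.000153 in edgeR).

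Brca2 (ENSMUSG00000041147, chromosome 5, 150522630 to 150570329), which encodes a protein that acts before strand exchange, changed least in this group. Its level was 2.52, 3.34, 4.81 and 2.4 CPM in simvastatin replicates 1 to 4, against 6.12, 6.66, 5.49 and 7.25 CPM in control replicates 1 to 4, with a log2 fold change of -0.96 ± 0.24 (SE, adjusted p = 0.0172 in edgeR). Simvastatin replicate 3 was the highest of its group and still below the lowest control. In set 1 alone Brca2 had -0.69 (edgeR adjusted p = 0.294) and without simvastatin replicate 1 and control replicate 3 it had -0.92 (edgeR adjusted p = 0.0573), so its call ended in both.

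The ligase gene Brca1 (ENSMUSG00000017146, chromosome 11, 101488764 to 101551955) had 1.23, 5.18, 3.29 and 4.41 CPM in simvastatin replicates 1 to 4, against 17.2, 17.5, 9.39 and 17.3 CPM in control replicates 1 to 4. Simvastatin replicate 1 was the lowest, and control replicate 3 lay well below the remaining 3 controls, which were close together. The log2 fold change was -2.12 ± 0.38 (SE, adjusted p = 0.00325 in edgeR). Bard1, whose product forms the ubiquitin ligase with BRCA1, averaged 0.934 ± 0.352 CPM with simvastatin and 2.75 ± 0.593 CPM in controls (SD, n = 4 each), a log2 fold change of -1.55 ± 0.30 (SE, adjusted p = 0.00511 in edgeR). In set 2 alone Bard1 lost its call (-1.15, edgeR adjusted p = 0.0531). Palb2, the bridge between BRCA1 and BRCA2, had -1.31 ± 0.22 (SE, adjusted p = 0.00251 in edgeR), and Rad54b, a second translocase of the RAD54 kind, had -2.02 ± 0.31 (SE, adjusted p = 0.00135 in edgeR).

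The 5 genes Rad51b, Rad51c, Rad51d, Xrcc2 and Xrcc3, whose products act together in complexes before strand exchange, split. Xrcc3 (ENSMUSG00000021287, chromosome 12, 111803192 to 111813873) had 4.5, 4.84, 5.52 and 5.6 CPM in simvastatin replicates 1 to 4, against 13.6, 10.4, 13 and 13 CPM in control replicates 1 to 4, and its log2 fold change was -1.29 ± 0.15 (SE, adjusted p = 0.000261 in edgeR). Rad51c, which pairs with XRCC3 and also belongs to a complex with RAD51B, RAD51D and XRCC2, had 6.3, 7.08, 7.42 and 6.81 CPM in simvastatin replicates 1 to 4, against 11.6, 11.3, 9.44 and 12.6 CPM in control replicates 1 to 4. It fell by less, with -0.70 ± 0.14 (SE, adjusted p = 0.00664 in edgeR), and every simvastatin library was below every control.

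Rad51d (ENSMUSG00000018841, chromosome 11, 82876434 to 82890614), a member of that same complex of 4, had 16.5, 21.2, 20.6 and 22.9 CPM in simvastatin replicates 1 to 4, against 18.1, 23, 17.9 and 20.04 CPM in control replicates 1 to 4. The groups overlapped, and the log2 fold change was 0.04 ± 0.14 (SE, adjusted p = 0.892 in edgeR), with a 95% interval of -0.27 to 0.35. Rad51b averaged 0.691 ± 0.159 CPM with simvastatin and 1.71 ± 0.392 CPM in controls and Xrcc2 7.87 ± 0.891 CPM with simvastatin and 13.6 ± 3.28 CPM in controls (SD, n = 4 each), with log2 fold changes of -1.30 ± 0.28 (SE, adjusted p = 0.00872 in edgeR) and -0.79 ± 0.19 (SE, adjusted p = 0.0157 in edgeR). Rad51b lost its call in set 2 alone (-0.83, edgeR adjusted p = 0.173) and without simvastatin replicate 1 and control replicate 3 (-1.19, edgeR adjusted p = 0.0532). In set 1 alone, a fit of 2 libraries against 2, Rad51c had -0.64 (edgeR adjusted p = 0.154) and Xrcc2 -0.57 (edgeR adjusted p = 0.18), without calls.

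Among the genes that process break ends and joined molecules, the exonuclease gene fell most. Exo1 (ENSMUSG00000039748, chromosome 1, 175880581 to 175913489), which resects the 5′ strand, had 1.61, 2.91, 3.26 and 4.94 CPM in simvastatin replicates 1 to 4, against 17.3, 14, 13.3 and 16.2 CPM in control replicates 1 to 4. Its log2 fold change was -2.26 ± 0.28 (SE, adjusted p = 0.00041 in edgeR), and its highest simvastatin library was far below its lowest control. Blm, the helicase that unwinds joined strands, averaged 9.22 ± 1.71 CPM with simvastatin and 21.7 ± 4.01 CPM in controls (SD, n = 4 each), a log2 fold change of -1.24 ± 0.18 (SE, adjusted p = 0.00115 in edgeR).

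Eme1 and Mus81 encode the subunits of a nuclease that cuts branched DNA. Eme1 (ENSMUSG00000039055, chromosome 11, 94644996 to 94653964) had 1.86, 3.14, 2.13 and 3.72 CPM in simvastatin replicates 1 to 4, against 9.62, 9.11, 8.1 and 8.19 CPM in control replicates 1 to 4, a log2 fold change of -1.69 ± 0.23 (SE, adjusted p = 0.000643 in edgeR). Mus81 (ENSMUSG00000024906, chromosome 19, 5482345 to 5488402) had 57.2, 55.2, 54.5 and 50.7 CPM in simvastatin replicates 1 to 4, against 56.2, 55.8, 63.5 and 58.4 CPM in control replicates 1 to 4. The Mus81 groups overlapped, with a log2 fold change of -0.10 ± 0.09 (SE, adjusted p = 0.513 in edgeR) and a 95% interval of -0.31 to 0.10.

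Neither gene that acts first on break ends passed the test. Rbbp8, which encodes CtIP, the starter of resection, averaged 15.6 ± 2.56 CPM with simvastatin and 21.3 ± 3.09 CPM in controls (SD, n = 4 each), with -0.45 ± 0.16 (SE, adjusted p = 0.0814 in edgeR), and passed only with the DESeq2 Wald test (DESeq2 adjusted p = 0.0461). Nbn, a subunit of the complex that binds break ends, had 27.2, 25.4, 36.5 and 25.2 CPM in simvastatin replicates 1 to 4, against 19.8, 44.4, 39.3 and 44.4 CPM in control replicates 1 to 4. Control replicate 1 was the lowest of all 8 libraries, and the log2 fold change of Nbn was -0.37 ± 0.24 (SE, adjusted p = 0.341 in edgeR). Without control replicate 1 it was -0.59 (edgeR adjusted p = 0.0218), and it was 0.08 in set 1 and -0.81 in set 2 (edgeR adjusted p = 0.924 and 0.00111).

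In the Fanconi core complex, Fanca and Fancb fell and 5 other subunit genes did not pass. Fanca (ENSMUSG00000032815, chromosome 8, 123268300 to 123318576) had 3.81, 5.21, 4.48 and 5.93 CPM in simvastatin replicates 1 to 4, against 16.7, 13.3, 12.1 and 13.6 CPM in control replicates 1 to 4, with a log2 fold change of -1.52 ± 0.18 (SE, adjusted p = 0.000267 in edgeR). Fancb, on chromosome X, averaged 2.44 ± 0.888 CPM with simvastatin and 9.49 ± 1.03 CPM in controls (SD, n = 4 each), with -1.96 ± 0.25 (SE, adjusted p = 0.000421 in edgeR). Ube2t (ENSMUSG00000026429, chromosome 1, 134962565 to 134974162), the ubiquitin-conjugating enzyme of the pathway, had 7.12, 8.73, 9.13 and 9.38 CPM in simvastatin replicates 1 to 4, against 27.5, 25.3, 30.4 and 25.9 CPM in control replicates 1 to 4. It had the smallest adjusted p of the 36 genes, with a log2 fold change of -1.67 ± 0.13 (SE, adjusted p = 3.75e-05 in edgeR).

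Fancc (ENSMUSG00000021461, chromosome 13, 63304709 to 63497278) had 16.4, 16.9, 20.7 and 16.3 CPM in simvastatin replicates 1 to 4, against 16.5, 20.4, 19.1 and 18.3 CPM in control replicates 1 to 4, with overlapping groups and a log2 fold change of -0.08 ± 0.13 (SE, adjusted p = 0.745 in edgeR), 95% interval -0.37 to 0.21. Fancl, the subunit that carries the ligase activity, averaged 13 ± 0.778 CPM with simvastatin and 14.4 ± 1.73 CPM in controls (SD, n = 4 each), with -0.15 ± 0.13 (SE, adjusted p = 0.519 in edgeR). Fancg had -0.39 ± 0.13 (SE, adjusted p = 0.0568 in edgeR) with every simvastatin library below every control, and passed with the DESeq2 Wald test (DESeq2 adjusted p = 0.015), with a filter of 1 CPM in 4 libraries (edgeR adjusted p = 0.0475), with set as a term (edgeR adjusted p = 0.048) and without control replicate 3 (edgeR adjusted p = 0.0358).

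Fance, the subunit that binds FANCD2, was the gene with the highest log2 fold change, 0.24 ± 0.31 (SE, adjusted p = 0.671 in edgeR), at 1.8 ± 0.392 CPM with simvastatin and 1.52 ± 0.621 CPM in controls (SD, n = 4 each). Fancm, the translocase that anchors the complex to DNA, had 7.88, 11.3, 14.4 and 10.3 CPM in simvastatin replicates 1 to 4, against 9.14, 18.2, 9.47 and 23.6 CPM in control replicates 1 to 4. Its controls were low in replicates 1 and 3 and high in replicates 2 and 4. The log2 fold change was -0.46 ± 0.31 (SE, adjusted p = 0.371 in edgeR), and it was 0.23 in set 1 and -0.95 in set 2 (edgeR adjusted p = 0.712 and 0.00529).

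The substrates of the core complex fell together. Fanci (ENSMUSG00000039187, chromosome 7, 79391929 to 79450264) had 2.96, 4.18, 5.1 and 5.2 CPM in simvastatin replicates 1 to 4, against 14.8, 14.1, 10.02 and 18.1 CPM in control replicates 1 to 4, a log2 fold change of -1.71 ± 0.23 (SE, adjusted p = 0.000636 in edgeR). Fancd2 (ENSMUSG00000034023, chromosome 6, 113531682 to 113597017), its partner, had 1.42, 6.65, 4.71 and 5.83 CPM in simvastatin replicates 1 to 4, against 19.8, 18.3, 12.1 and 16.8 CPM in control replicates 1 to 4, a log2 fold change of -1.85 ± 0.38 (SE, adjusted p = 0.00678 in edgeR). Simvastatin replicate 1 was the lowest library for both genes.

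Brip1 (ENSMUSG00000034329, chromosome 11, 86058138 to 86201193), the FANCJ helicase that binds BRCA1 and whose promoter is printed above, had 1.54, 2.33, 2.0 and 2.14 CPM in simvastatin replicates 1 to 4, against 11, 8.58, 8.47 and 9.26 CPM in control replicates 1 to 4. The highest simvastatin library was below the lowest control by a wide margin, and the log2 fold change was -2.21 ± 0.18 (SE, adjusted p = 4.29e-05 in edgeR). Rad18, the ubiquitin ligase that marks PCNA at stalled forks, had 5.17, 8.29, 8.29 and 8.26 CPM in simvastatin replicates 1 to 4, against 26.5, 16.5, 19.1 and 14.1 CPM in control replicates 1 to 4, with simvastatin replicate 1 below the other 3. Its log2 fold change was -1.35 ± 0.23 (SE, adjusted p = 0.00231 in edgeR).

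In the checkpoint, the downstream kinases fell while the kinases that act before them did not pass. Chek1 (ENSMUSG00000032113, chromosome 9, 36708482 to 36727065), the kinase that ATR activates, had 2.55, 4.0, 2.68 and 3.0 CPM in simvastatin replicates 1 to 4, against 11.1, 9.0, 8.13 and 12.7 CPM in control replicates 1 to 4, a log2 fold change of -1.74 ± 0.21 (SE, adjusted p = 0.000318 in edgeR). Chek2, the kinase that ATM activates, averaged 4.97 ± 1.39 CPM with simvastatin and 10.4 ± 1.65 CPM in controls (SD, n = 4 each), with -1.07 ± 0.22 (SE, adjusted p = 0.00809 in edgeR). Topbp1 (ENSMUSG00000032555, chromosome 9, 103305215 to 103350428), the activator of ATR, had 8.35, 6.85, 6.84 and 6.49 CPM in simvastatin replicates 1 to 4, against 12.2, 10.9, 15 and 13.6 CPM in control replicates 1 to 4. Its log2 fold change was -0.86 ± 0.15 (SE, adjusted p = 0.00333 in edgeR), and in set 1 alone the call ended (-0.86, edgeR adjusted p = 0.0811).

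Atm averaged 6.43 ± 1.78 CPM with simvastatin and 7.6 ± 2.91 CPM in controls and Atr 11.6 ± 3.05 CPM with simvastatin and 15.9 ± 2.71 CPM in controls (SD, n = 4 each), with log2 fold changes of -0.24 ± 0.30 (SE, adjusted p = 0.666 in edgeR) and -0.45 ± 0.20 (SE, adjusted p = 0.17 in edgeR) and overlapping groups. Atrip, the partner of ATR, was among the lowest of the 36, with 0.945, 0.95, 0.645 and 0.823 CPM in simvastatin replicates 1 to 4, against 1.31, 0.533, 1.17 and 0.874 CPM in control replicates 1 to 4. Its log2 fold change was -0.21 ± 0.32 (SE, adjusted p = 0.736 in edgeR), with a 95% interval of -0.93 to 0.51. For these kinases the intervals reach falls as large as -0.91 (Atm) and -0.90 (Atr), so the missing calls do not show an equal level.

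Ratios within a library, of counts scaled to exon length, show the unequal changes of partners without reference to the scaling between libraries. The Eme1 to Mus81 ratio was 0.0419, 0.0735, 0.0504 and 0.0948 in simvastatin replicates 1 to 4, against 0.221, 0.211, 0.165 and 0.181 in control replicates 1 to 4. The Ube2t to Fancl ratio was 0.414, 0.479, 0.467 and 0.483 in simvastatin replicates 1 to 4, against 1.14, 1.38, 1.55 and 1.28 in control replicates 1 to 4. In both pairs every simvastatin library was below every control.

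Chek1 to Atr ran from 1.13 to 1.53 with simvastatin, against 2.98 to 3.75 in controls, and Chek2 to Atm from 1.85 to 3.67 with simvastatin, against 3.93 to 7.86 in controls. Fanca to Fancg ran from 0.133 to 0.178 with simvastatin, against 0.319 to 0.38 in controls, and Rad51b to Rad51d from 0.0621 to 0.0841 with simvastatin, against 0.135 to 0.254 in controls. Of 12 pairs computed, 10 had all simvastatin ratios below all control ratios, and the other 2, Brca1 to Bard1 and Fancd2 to Fanci, overlapped between groups. Fancd2 to Fanci ran from 0.348 to 1.16 with simvastatin, against 0.675 to 0.971 in controls. The pairs were chosen by known partnership after the fold changes were seen, so they are given without a test. Most of the separate pairs put a gene that fell over one without a call. Their direction therefore follows from the fold changes above, and the count of 10 adds no support to them. No share for other gene pairs is given.

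**Figure D3:**
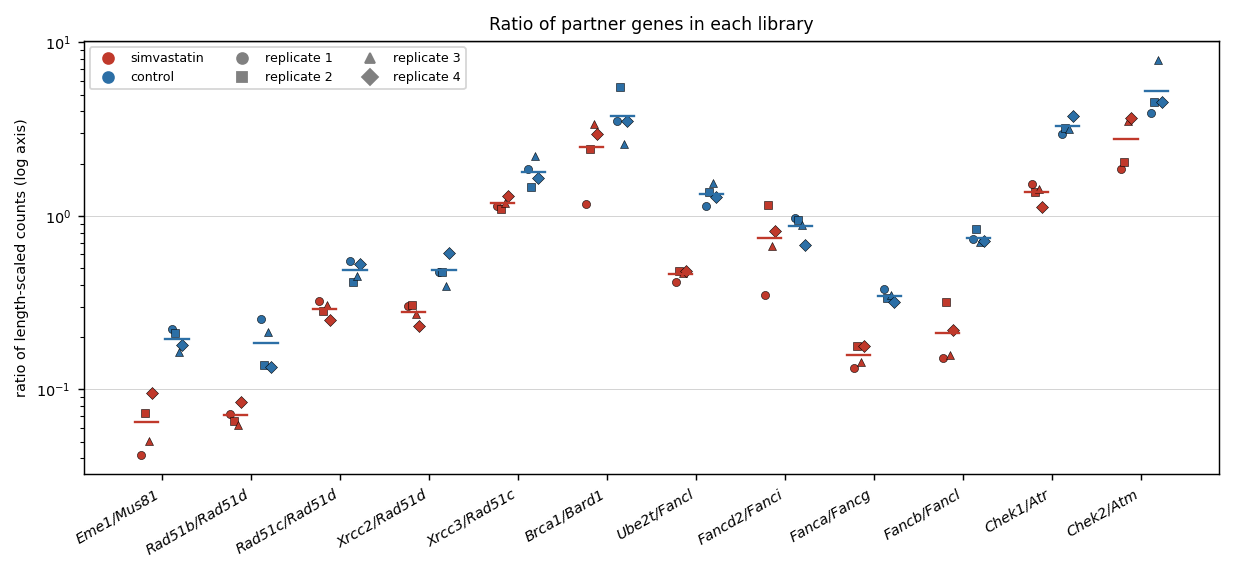
Ratio of length-scaled counts (log axis) of 12 partner pairs in each library, simvastatin left of control, with a bar at the mean of 4. The groups overlap for Brca1/Bard1 and Fancd2/Fanci and are separate for the other 10 pairs.

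Per exon length, Mus81 was the most abundant of the 36 transcripts in both groups, at 15.3 ± 0.77 RPKM with simvastatin and 16.4 ± 0.993 RPKM in controls (SD, n = 4 each), followed by Nbn at 11.3 ± 2.12 RPKM with simvastatin and 14.6 ± 4.61 RPKM in controls. Ube2t ranked 9 of 36 with simvastatin and 3 in controls, Rad51ap1 19 and 11, and Rad54l 15 and 9. Rad51d ranked 3 with simvastatin and 5 in controls, and Fancc 7 and 19. The median level of the 24 genes that fell was 0.707 RPKM with simvastatin and 2.34 RPKM in controls, and that of the other 12 was 2.86 and 3.31 RPKM in the same order.

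Both sets showed falls. In set 1 alone 20 of the 36 genes fell, against 5.91% of all genes tested there, and in set 2 alone 24 fell, against 11.5%. In each set 0 rose. Median changes were -1.40 (set 1) and -1.0 (set 2) on the log2 scale, and of the 24 genes that fell, 19 had the more negative value in set 1. The difference of the effect between sets passed for 0 of the 36 genes, against 0.0558% of all genes tested (edgeR interaction term), with 5 at an unadjusted p under 0.05 and a lowest adjusted p of 0.218. Those 5 were Fancm, Fancb, Eme1, Rad18 and Nbn, chosen after their values were seen. The share of all genes at that unadjusted threshold is not given, so nothing is read from the count of 5. Without adjustment, Fancm differed by -1.21 and Nbn by -0.92 (set 2 minus set 1, log2), the other 3 by 0.81 to 0.90.

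**Figure D4:**
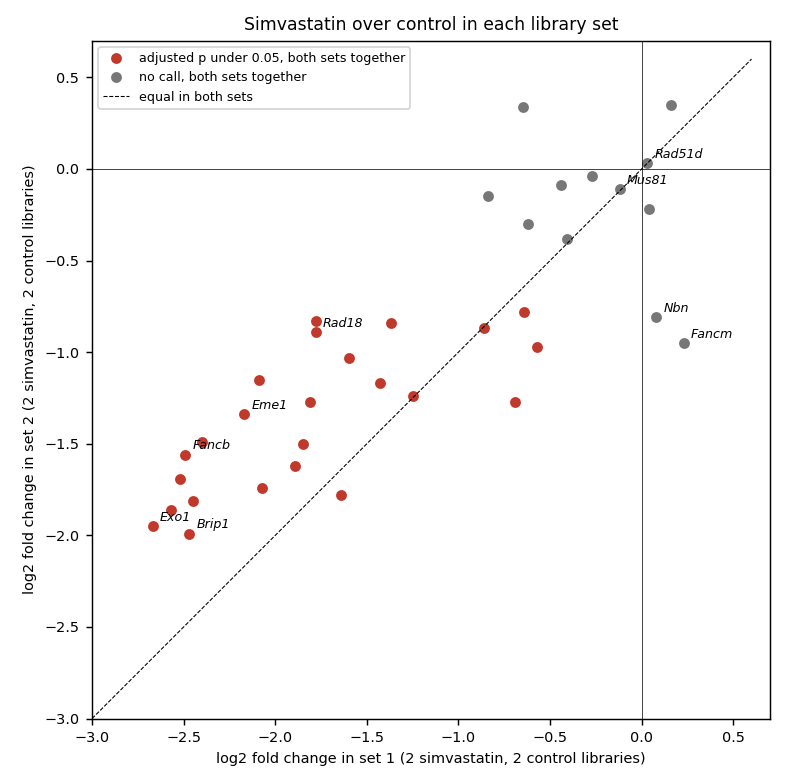
Log2 fold change, simvastatin over control, of the 36 genes in set 1 (horizontal) and set 2 (vertical), each with 2 libraries per group; the dashed line marks equal values. Nbn and Fancm lie at 0.08 and 0.23 in set 1 and at -0.81 and -0.95 in set 2.

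Over the 36 genes, simvastatin replicate 1 was the lowest simvastatin library in 25 and control replicate 3 the lowest control in 22. The shares over all genes are not given, so these counts are not read as a trait of the 36. Without these 2 libraries 22 of the 36 fell, 0 rose and the median was -1.19. The share of all genes that fell in that fit is not given, so nothing more is read from its count.

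Some of the genes overlap their neighbours. Exons of 13 of the 36 share bases with another gene, and whether the authors counted by strand was not stated in the labels. In Atrip, with Fsbp in Rad54b and with Gm24004 in Atr, the other gene lies on the same strand. Counting by strand would not separate these. The shared part was 49.9% of exon length in Atrip, 35.9% in Rad54b (with Fsbp and another gene), 16.0% in Fanci (Polg), 15.4% in Rad54l (Lrrc41), 13.7% in Fancl (Vrk2), 10.7% in Eme1 (Lrrc59 and Mrpl27) and 10.5% in Fanca (Zfp276), and at most 5.8% in the other 6. Of the 23 genes without such overlap 15 fell and 0 rose, and their median was -1.07 (log2).

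A further list holds other genes of these pathways. Of 61 listed, 59 were tested, of which 19 fell and 2 rose (median log2 fold change -0.26). Among all genes tested 9.61% fell and 7.79% rose. The count that rose is not above that background, and nothing is read from it. Rpa2, a subunit of the protein that coats single strands, had a log2 fold change of -1.13 ± 0.10 (SE, adjusted p = 5.44e-05 in edgeR), Uhrf1, which binds hemimethylated DNA, -1.85 ± 0.17 (SE, adjusted p = 6.22e-05 in edgeR), and Timeless, a fork protection protein, -1.73 ± 0.16 (SE, adjusted p = 6.43e-05 in edgeR). Ercc1 and Fan1 had 0.01 and -0.01 and did not pass (adjusted p = 0.987 in edgeR for each). The genes that rose were Ercc4, which encodes a nuclease subunit, with 0.37 ± 0.10 (SE, adjusted p = 0.0306 in edgeR), and Sfr1 with 0.29 ± 0.08 (SE, adjusted p = 0.0288 in edgeR). With any 1 library left out, at most 1 gene of this list rose and 14 to 18 fell. In each set alone 0 rose.

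Lists of other repair pathways had medians closer to 0 than the 36 genes. Of 10 genes of non-homologous end joining, which rejoins ends without a template, 0 fell and 1 rose, with a median of 0.22, beside 9.61% that fell and 7.79% that rose among all genes tested, so the counts are near the background. The gene that rose was Paxx, an end-joining scaffold, with 1.14 ± 0.16 (SE, adjusted p = 0.000936 in edgeR). Xrcc6, which encodes the KU70 end-binding protein, had -0.28 ± 0.11 (SE, adjusted p = 0.112 in edgeR), Xrcc5 0.25 and Xrcc4 0.24, and Poll and Polm had 0.05 and -0.05, without calls. In this list 1 had an unadjusted p under 0.05 in edgeR without passing, Xrcc6, and with set as a term or in set 2 alone 1 gene fell.

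Of 7 mismatch repair genes 3 fell and 0 rose, with a median of -0.33. The background over all genes tested was 9.61% that fell and 7.79% that rose. Msh6, which recognises mismatched bases, had -0.94 ± 0.18 (SE, adjusted p = 0.00551 in edgeR), Pms1 -0.73 ± 0.17 (SE, adjusted p = 0.0127 in edgeR) and Pms2 -0.47 ± 0.12 (SE, adjusted p = 0.0248 in edgeR), while Msh3 had -0.31 and Mlh3 0.38 without calls. In set 1 alone 1 of the 7 fell, against 5.91% of all genes tested there, and in set 2 alone 3 fell, against 11.5%. Of 30 genes of base and nucleotide excision repair 5 fell and 2 rose, with a median of -0.03, beside 9.61% that fell and 7.79% that rose among all genes tested, and nothing is read from these counts. Neil3, a DNA glycosylase, had -2.28 ± 0.29 (SE, adjusted p = 0.000454 in edgeR) and Ung, which removes uracil, -1.55 ± 0.21 (SE, adjusted p = 0.000594 in edgeR), and the damage sensor Xpc and the glycosylase gene Nthl1 rose with 0.75 ± 0.14 (SE, adjusted p = 0.00503 in edgeR) and 0.82 ± 0.16 (SE, adjusted p = 0.00517 in edgeR). In set 1 alone 2 of these genes fell and 1 rose, and in set 2 alone 7 fell and 2 rose. Beside them stand the same shares of all genes that fell, 5.91% and 11.5%. No difference between these lists was tested.

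**Figure D5:**
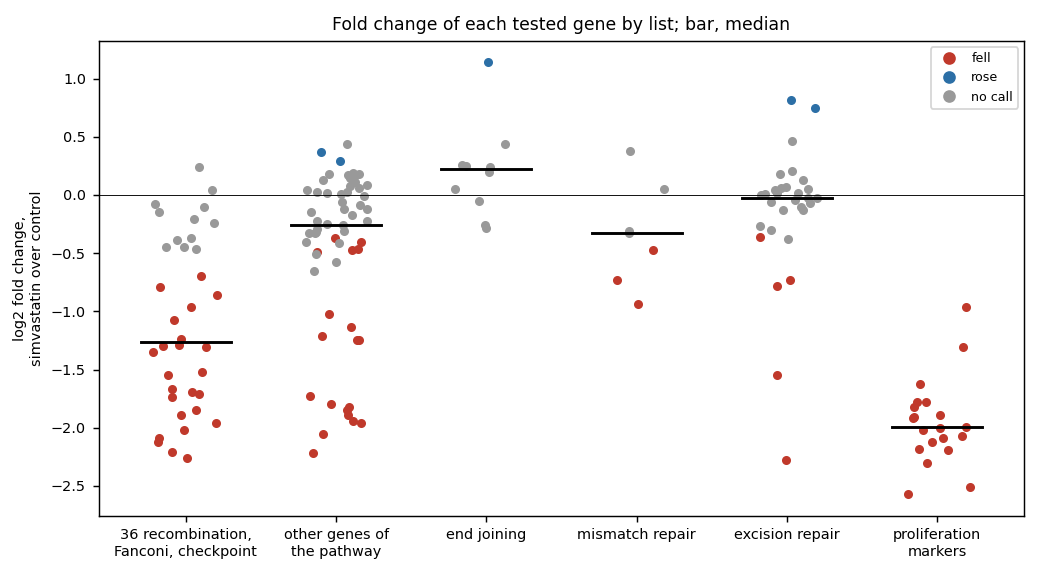
Log2 fold change, simvastatin over control, of each tested gene in the 36 genes, the other genes of the pathway, 3 other repair lists and the proliferation markers, with a bar at each list's median. The 36 genes have a median of -1.26, between -0.26 for the other pathway genes and -2.0 for the proliferation markers.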

How the data were processed

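The authors deposited 1 table per library with raw counts per Ensembl gene, and the submitters' processing notes name GRCm38 (mm10), featureCounts, Subread 1.5.2, STAR 2.5.2b and Trimmomatic 0.36. The sources used here state no strand setting, annotation release or handling of multiply mapped reads. Symbols came from GENCODE of the same build (99.3% of identifiers), and coordinates are 1-based, as in the files. Genes were kept by filterByExpr (16126 of 32927 with a count) and tested in edgeR 4.0.16 under R 4.3.3 (quasi-likelihood F test), with TMM scaling, treatment as the only term, two-sided. CPM and RPKM used the TMM-scaled total over tested genes, and RPKM the deposited exon length, listed as another column of the same tables. SE is the absolute log2 fold change divided by the square root of F.

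Genes, lists and groups were chosen with earlier results of these data known, so no list was tested. Values of every library are printed for the 2 genes with the smallest and the 1 with the largest p in each of 6 groups, and for genes with a library that stood apart; up to 4 genes with the smallest and 2 with the largest p are named from other lists, apart from some that are not reported here. The edgeR step was checked on simulated counts. Replicates differed by more than counting noise.

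Alternatives were DESeq2 1.42.0 as a Wald test, limma 3.58.1 with voom, scaling by DESeq2 size factors or by library totals, 2 other filters, the replicate block, set as a term, each set alone, each library left out, and genes without overlap. Leaving out simvastatin replicate 1 and control replicate 3 together was added after seeing the data. Figures were drawn in Python 3.11.15.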

Additional observations from a re-analysis of the deposited data

Results flagged for a closer look

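Among 72 groups of 4 libraries examined, 3 had a library far from its 3 fellows by Dixon's criterion at the 95% level, and chance flags about 1 in 20 such groups. Brca1 stood at 9.39 CPM in control replicate 3, against 17.2 to 17.5 CPM in the other controls. Rad18 stood at 5.17 CPM in simvastatin replicate 1, against 8.26 to 8.29 CPM in the other simvastatin libraries. Fancc stood at 20.7 CPM in simvastatin replicate 3, against 16.3 to 16.9 CPM in the other simvastatin libraries. The causes were not tested.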

How the results depend on the processing

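Over 20 alternatives, between 20 and 26 of the 36 genes fell and 0 rose, apart from the alternative restricted to genes without exon overlap, where 15 of 23 fell with a median of -1.07. With each library left out in turn, 24 to 25 genes fell, 0 rose, and the median ran from -1.29 to -1.13. In set 2 alone the median was -1.0, and the cause of that move was not tested. Of 683 single-gene values under the alternatives, 667 kept their direction or stayed without a call on the same side of the threshold, 8 lost the call, 8 gained one, and 0 called values changed sign. The lost calls were 4 in set 1 alone (Brca2, Rad51c, Xrcc2 and Topbp1), 2 in set 2 alone (Bard1 and Rad51b) and 2 without simvastatin replicate 1 and control replicate 3 (Brca2 and Rad51b), fits with fewer samples. Same-numbered replicates did not deviate together (correlations -0.16 to 0.13). With the replicate block 24 genes fell and 0 rose, with a median of -1.26, and every call of the 36 genes stood. With that block the other genes of the pathway went to 14 that fell and 0 that rose, Ercc4 (adjusted p = 0.0927 in edgeR) and Sfr1 (adjusted p = 0.079 in edgeR) had no call, and 0 of 8 fibroblast and mesenchyme markers fell. The DESeq2 Wald test called 26. Shares of all genes that fell are given only for the main fit and for each set alone. A higher count under another alternative is therefore not read as a stronger result for these genes. For the other genes of the pathway the count that rose, 2, ran from 0 to 3 and the count that fell from 13 to 21. Counts down to 18 per library limit what can be said of the lowest genes, Atrip, Rad51b and Bard1.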

Other observations

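Fancm levels followed the sets among the controls but not among the simvastatin libraries. Controls of set 1 stood at 9.14 and 9.47 CPM and those of set 2 at 18.2 and 23.6 CPM, while simvastatin libraries stood at 7.88 and 14.4 CPM in set 1 and at 11.3 and 10.3 CPM in set 2. The summed level of fibroblast and mesenchyme markers also differed between sets among the controls. It was 1236 to 1260 CPM in simvastatin and 2310 to 2541 CPM in control libraries of set 1, and 1348 to 1440 CPM in simvastatin and 1145 to 1154 CPM in control libraries of set 2. The headers do not define the sets, and the relation between these values was not tested.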
